A study of Mus musculus with 8 samples.

Results

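Mechanosensitive, K2P potassium and Ano1 channels were followed in trigeminal ganglia of mice, the sensory ganglia that serve the face. The 9 genes were taken by symbol: Piezo1 and Piezo2, the K2P genes Kcnk1, Kcnk2, Kcnk3, Kcnk4, Kcnk10 and Kcnk18, and Ano1. Every probe set that the platform annotation gives 1 of these symbols alone was used, which left 14 of 45037 probe sets and 8 of 18193 measured genes. Kcnk18, which encodes TRESK, had 0 such probe sets and was not analysed here.

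The arrays compared 4 samples of daDREAM transgenic mice, whose titles carry the tag tg16, with 4 samples of control mice. The transgene encodes a form of DREAM, the calcium-binding repressor made from Kcnip3, that is designed to stay active. All 8 samples are labelled as RNA of trigeminal ganglia of adult males on a C57B/6XCBA background. The series' design text calls the 4 arrays of a group biological replicates. No label names the promoter that drives the transgene, the number of founder lines or whether a sample pools animals, so p-values cover only the spread among these 8 samples.

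Piezo channels are large cation channels opened by membrane stretch. Piezo2 is the main transducer of light touch in sensory neurons, and Piezo1 is known above all from blood vessels and red cells. K2P channels carry the background potassium current that holds neurons at rest: TREK-1 (Kcnk2), TREK-2 (Kcnk10) and TRAAK (Kcnk4) open with stretch, warmth and fatty acids, TASK-1 (Kcnk3) closes with acid, TWIK-1 (Kcnk1) conducts weakly, and TRESK is activated by calcineurin. Ano1, also called Tmem16a, is a chloride channel opened by calcium and by noxious heat, and in sensory neurons it depolarises the cell.

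Because DREAM binds the DRE, an element with the core GTCA, the core was searched on both strands in the 250 bases before each RefSeq start site (GRCm38.p6). The windows with a match are shown for Kcnk2 and Kcnk10, the K2P genes among the 8 measured channels with the smallest p-values. Capitals mark GTCA, or TGAC where the core lies on the other strand. The windows lie at chr1:189344193-189344442 (A) and chr1:189343354-189343603 (B) and at chr12:98575128-98575377, all on the minus strand.
Kcnk2 window A: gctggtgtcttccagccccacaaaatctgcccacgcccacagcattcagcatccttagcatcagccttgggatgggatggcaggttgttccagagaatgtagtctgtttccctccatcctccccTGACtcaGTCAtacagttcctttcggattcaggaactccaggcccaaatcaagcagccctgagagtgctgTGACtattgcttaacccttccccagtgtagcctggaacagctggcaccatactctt
Kcnk2 window B: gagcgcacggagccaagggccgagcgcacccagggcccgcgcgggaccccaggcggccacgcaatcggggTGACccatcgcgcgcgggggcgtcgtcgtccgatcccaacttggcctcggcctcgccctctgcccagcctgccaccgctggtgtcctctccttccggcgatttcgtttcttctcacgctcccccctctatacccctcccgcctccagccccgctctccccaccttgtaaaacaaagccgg
Kcnk10 window: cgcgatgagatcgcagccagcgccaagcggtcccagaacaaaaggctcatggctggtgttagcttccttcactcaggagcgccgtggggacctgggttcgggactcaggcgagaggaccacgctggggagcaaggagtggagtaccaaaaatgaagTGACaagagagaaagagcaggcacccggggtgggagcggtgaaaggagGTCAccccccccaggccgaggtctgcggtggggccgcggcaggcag

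Of 4 Kcnk2 windows, 2 held the core, with 3 matches in window A and 1 in window B, and of 2 Kcnk10 windows 1 held it, with 2 matches. One of the matches in window A lies within TGACTCA, an AP-1 element (TGANTCA), so it is also a match to that motif, which 6.7% of all windows held on either strand. The windows of Piezo1, Kcnk4 and Kcnk18 held 1 match each, and those of Kcnk1 and Ano1 held 2 each. Windows of Piezo2 and Kcnk3 were not used here. The core is short and common: 80.2% of 32851 windows of the same length held it, with a mean of 1.74 matches, so these letters describe the promoters and do not mark binding. Bases after the start sites were not searched.

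All levels are the authors' RMA values on a log2 scale, in which 1 unit is a doubling of signal. Probe sets differ in their probes, so levels are compared between samples and not between probe sets. A gene is represented by its brightest probe set, differences are daDREAM minus control, and a gene passed at a limma adjusted p under 0.05 over all genes. In whole ganglia fewer cells of a type and less RNA per cell cannot be told apart.

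Several arrays stood apart in genes other than the channels. Although all samples are labelled male, Xist, the RNA of the inactive X chromosome, read 11.51 on daDREAM replicate 4, 10.20 on control replicate 3 and 11.72 on control replicate 4. The remaining 5 arrays read 6.10 to 6.49. The Y-linked Eif2s3y was lowest on the same arrays, at 4.46 on daDREAM replicate 4, 7.16 on control replicate 4 and 8.40 on control replicate 3. All 12 central nervous system markers were above 0 as differences, with array means of 8.99 to 9.58 in daDREAM samples and 8.25 to 8.88 in control samples, and 1 passed, Aqp4. Skeletal muscle markers averaged 6.08 to 6.14 in daDREAM samples and 6.16 to 7.81 in control samples, with control replicates 1 and 3 highest, and 0 of 9 passed. Blood markers averaged 7.82 to 7.95 in daDREAM samples and 7.56 to 7.75 in control samples. Of these 3 of 5 passed, the neutrophil genes S100a8 and S100a9 as higher and the immunoglobulin gene Ighm as lower. Over all genes 2.00% passed. Pituitary markers ran from 6.83 to 9.71 in daDREAM samples and from 7.11 to 8.36 in control samples. Sensory neuron markers, which check the labelled tissue, averaged 11.51 to 11.62 in daDREAM samples and 11.48 to 11.62 in control samples over 12 genes, and none lay below a log2 value of 6 on every array. What these differences between arrays contribute to the channel values was not tested, and Kcnk2, Kcnk10 and Piezo2 are also given without some of these arrays. The array means of central nervous system, skeletal muscle and blood markers did not overlap between the groups. Leaving out arrays therefore cannot tell these marker differences apart from the transgene. Kcnip3 itself averaged 10.26 ± 0.07 in daDREAM samples and 10.23 ± 0.15 in control samples (SD, n = 4 each) at its brightest probe set, a difference of 0.03. Its other probe set (1449129_a_at) averaged 9.16 ± 0.18 in daDREAM and 8.89 ± 0.32 in control samples, a difference of 0.27 (limma adjusted p = 0.346 over probe sets). No source says whether either reads the transgene.

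**Figure D1:**
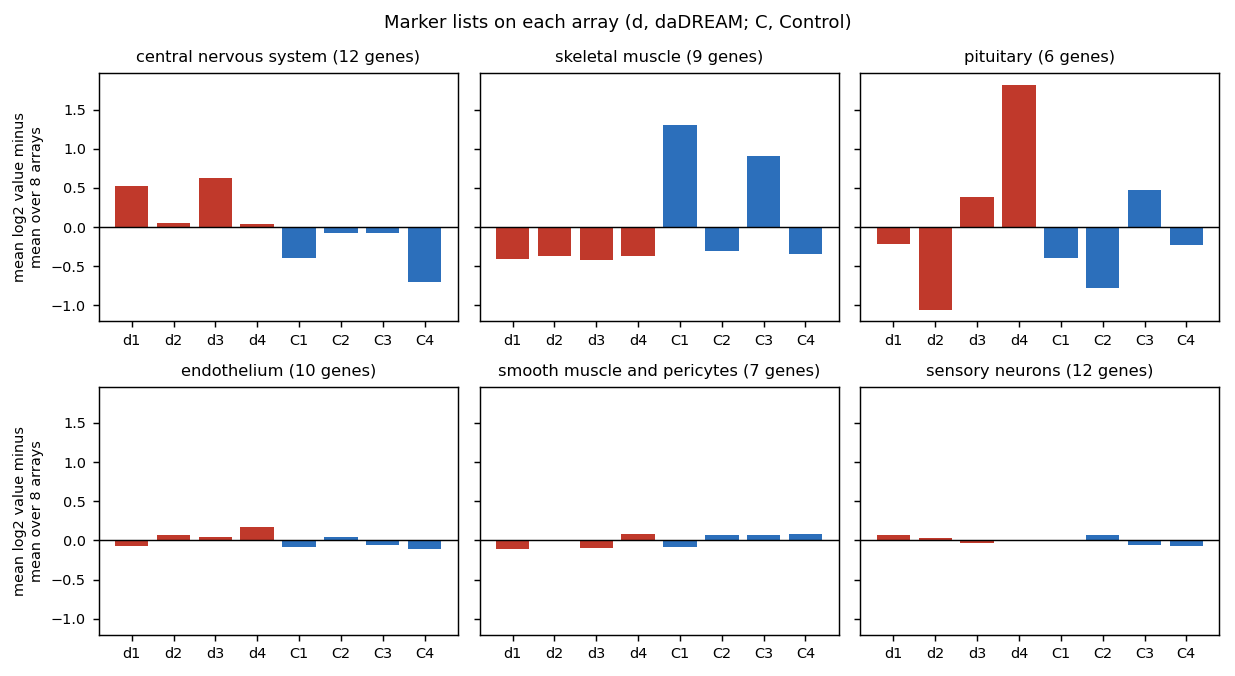
Mean log2 value of 6 marker lists on each array, minus the mean of that list over the 8 arrays (bars, daDREAM replicates d1 to d4 in red, control replicates C1 to C4 in blue). Central nervous system markers lie above 0 on all 4 daDREAM arrays, muscle markers stand out on control replicates 1 and 3 and pituitary markers on daDREAM replicate 4, while sensory neuron markers stay near 0.

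No channel gene passed the test. Of the 8 measured genes 0 passed with limma, where 2.00% of all genes did, and of the 14 probe sets 0 passed, where 2.74% of all probe sets did. The 8 differences ran from -0.26 to 0.27 with a median of -0.03, beside a median of 0.00 over all genes, and 4 were above and 4 below 0. Their median size was 0.13, against 0.10 over all genes. At an unadjusted p under 0.05 stood Kcnk2, Piezo2 and Kcnk10, that is 3 of 8 genes beside 18.2% of all genes, and 4 of 14 probe sets beside 18.5% of all probe sets. No 95% interval of a channel probe set reached beyond -0.47 or 0.49 on the log2 scale, which is 0.72-fold to 1.41-fold. A doubling of signal thus lay outside all 14 intervals. These are intervals of signal and not of RNA amount. Where signal is near background, as for Kcnk4 and the dimmest Kcnk3 probe set, a change in RNA could be missed.

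Kcnk2, the gene of TREK-1, had the smallest p of the channels. Its only probe set (1449158_at) read 8.87, 8.65, 8.66 and 8.65 in daDREAM samples, against 9.0, 8.95, 8.92 and 9.0 in control samples. All 4 daDREAM values lay below all 4 control values, although daDREAM replicate 1 came within 0.05 of the lowest control. The means were 8.71 ± 0.11 in daDREAM and 8.97 ± 0.04 in control samples (SD, n = 4 each), a difference of -0.26 (SE 0.07, 95% interval -0.42 to -0.10, limma adjusted p = 0.109), or 0.84-fold. The control values kept within 0.08 of each other. In all, 763 of 18193 genes had a smaller p. Without the 3 arrays with Xist signal the difference was -0.25 (limma adjusted p = 0.303), and without control replicates 1 and 3, the arrays with the most muscle signal, it was -0.27 (limma adjusted p = 0.261).

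Kcnk10, the gene of TREK-2 a close relative of Kcnk2, was read by 2 probe sets that did not go together. The brighter (1431613_a_at) read 7.23, 7.41, 7.39 and 7.39 in daDREAM samples, against 6.99, 6.91, 7.06 and 7.38 in control samples. Control replicate 4 stood among the daDREAM values, and the other 3 controls lay below all of them. The difference was 0.27 (SE 0.10, 95% interval 0.05 to 0.49, limma adjusted p = 0.203). Without control replicate 4 it was 0.37 and passed (limma adjusted p = 0.0364). That array had the least central nervous system signal, with a marker mean of 8.25, and also Xist signal and the most 18S signal of the 8 arrays. What these have to do with its Kcnk10 value was not tested. Without the 3 arrays with Xist signal the difference was 0.39 (limma adjusted p = 0.113), and without control replicates 1 and 4 it was 0.37 (limma adjusted p = 0.105). That pair is highest in 18S ribosomal signal and lowest in central nervous system signal. The dimmer Kcnk10 probe set (1438088_at) read 6.51, 6.63, 6.59 and 6.04 in daDREAM samples and 6.58, 6.46, 6.54 and 6.44 in control samples, a difference of -0.06 (95% interval -0.32 to 0.20). Its lowest value was on daDREAM replicate 4, and without that array the difference was 0.07. With the mean of both probe sets Kcnk10 differed by 0.10 (limma adjusted p = 0.492).

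Kcnk4, the gene of TRAAK, the other stretch-activated K2P channel, read 6.31, 6.31, 6.24 and 6.07 in daDREAM samples and 6.17, 6.15, 6.37 and 6.15 in control samples (1421419_at). The groups overlapped, with a difference of 0.02 (SE 0.08, 95% interval -0.16 to 0.20, limma adjusted p = 0.909). These values lie just above a log2 value of 6, below which signal is taken here as near background, so a change could be missed. The stretch-activated K2P channels thus gave differences of -0.26, 0.27 and 0.02, and none passed.

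Kcnk1, the gene of TWIK-1, had small positive differences at both of its probe sets, and neither passed. The brighter (1448690_at) read 11.68, 11.56, 11.74 and 11.71 in daDREAM samples and 11.39, 11.48, 11.69 and 11.58 in control samples. The ranges overlapped, since control replicate 3 exceeded 2 daDREAM arrays, and the difference was 0.14 (SE 0.08, 95% interval -0.04 to 0.32, limma adjusted p = 0.394). The other (1455896_a_at) gave 0.17 (95% interval -0.07 to 0.40, limma adjusted p = 0.445 over probe sets), with daDREAM values of 9.72 to 10.14 and control values of 9.59 to 9.95.

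Kcnk3, the gene of the acid-sensitive TASK-1, had 3 probe sets, all with small positive differences. The one that represents it (1425341_at) read 7.96, 7.88, 7.78 and 7.88 in daDREAM samples and 7.74, 7.82, 7.75 and 7.83 in control samples, a difference of 0.09 (SE 0.07, 95% interval -0.06 to 0.24, limma adjusted p = 0.503). Only daDREAM replicate 3 lay within the control range. The next (1426058_a_at) gave 0.13, and the dimmest (1425342_a_at) gave 0.23 (limma adjusted p = 0.261 over probe sets) between daDREAM values of 5.97 to 6.32 and control values of 5.71 to 6.04, near background.

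**Figure D2:**
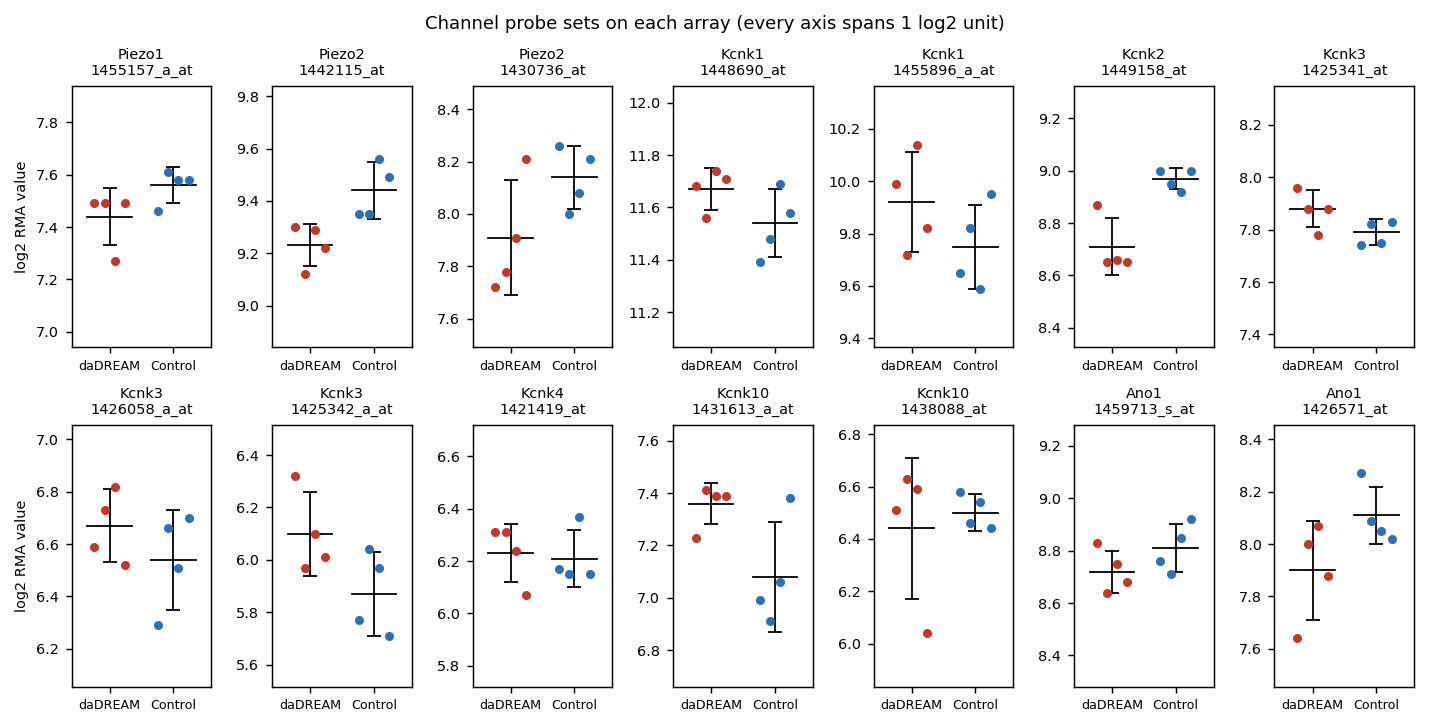
Log2 RMA value of each channel probe set on each array (points; daDREAM red, control blue; replicates 1 to 4 from left to right), with mean and SD of n = 4 per group as black bars, on axes that all span 1 log2 unit. The groups are apart for Kcnk2 and for the Piezo2 probe set 1442115_at, and overlap in the other 12 probe sets, including Kcnk10 1431613_a_at, where control replicate 4 lies among the daDREAM values.

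Piezo2, the touch transducer, was lower in daDREAM samples at both of its probe sets without passing. The brighter (1442115_at) read 9.30, 9.12, 9.29 and 9.22 in daDREAM samples, against 9.35, 9.35, 9.56 and 9.49 in control samples. Every daDREAM value lay below every control value, by 0.05 at the closest pair. Means were 9.23 ± 0.08 in daDREAM and 9.44 ± 0.11 in control samples (SD, n = 4 each), and the difference of -0.20 (SE 0.08, 95% interval -0.38 to -0.03, limma adjusted p = 0.207) is 0.87-fold. The dimmer (1430736_at) read 7.72, 7.78, 7.91 and 8.21 in daDREAM samples and 8.26, 8.00, 8.08 and 8.21 in control samples, a difference of -0.23 (95% interval -0.47 to 0.01, limma adjusted p = 0.285 over probe sets). Here daDREAM replicate 4 reached the control range and the other 3 lay below it. Without the 3 arrays with Xist signal, which include daDREAM replicate 4, the brighter probe set gave -0.11 (limma adjusted p = 0.608) and the dimmer gave -0.33 (limma adjusted p = 0.199 over probe sets). Without control replicates 1 and 4, the pair with the most 18S and the least central nervous system signal, the dimmer gave -0.14. Without the 3 arrays with the most Gh the dimmer gave -0.41 (limma adjusted p = 0.204 over probe sets).

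Kcnk2 and Piezo2 were the 2 of 8 genes whose groups did not overlap, both lower in daDREAM samples, where 5.73% of all genes were lower without overlap. Higher without overlap were 0 of 8 channel genes, against 5.00% of all genes.

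Piezo1, read by 1 probe set (1455157_a_at), gave 7.49, 7.49, 7.27 and 7.49 in daDREAM samples and 7.46, 7.61, 7.58 and 7.58 in control samples. Control replicate 1 lay below 3 of the daDREAM values, so the groups overlapped. The difference was -0.12 (SE 0.08, 95% interval -0.29 to 0.05, limma adjusted p = 0.415). Without daDREAM replicate 3, the lowest array, it was -0.07 (limma adjusted p = 0.705), and without the 3 arrays with the most Gh it was -0.06 (limma adjusted p = 0.824). Endothelial markers, from the cells in which Piezo1 is best known, had array means of 7.86 to 8.10 in daDREAM samples and 7.82 to 7.98 in control samples. Of these markers 6 of 10 were above 0 as differences. The tight junction gene Cldn5, as higher, was the 1 that passed, beside 2.00% of all genes.

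Ano1, the chloride channel gene, was read by 2 probe sets. The brighter (1459713_s_at), whose suffix marks probes that can match transcripts of more than 1 gene, read 8.83, 8.64, 8.75 and 8.68 in daDREAM samples and 8.76, 8.71, 8.85 and 8.92 in control samples. The groups overlapped, with a difference of -0.08 (SE 0.08, 95% interval -0.25 to 0.08, limma adjusted p = 0.573). The dimmer (1426571_at) read 7.64, 8.00, 8.07 and 7.88 in daDREAM samples and 8.27, 8.09, 8.05 and 8.02 in control samples, a difference of -0.21 (95% interval -0.43 to 0.01, limma adjusted p = 0.294 over probe sets). There daDREAM replicate 1 was lowest and replicate 3 lay among the controls. Smooth muscle and pericyte markers, another cell group in which Ano1 is known, averaged 8.26 to 8.45 in daDREAM samples and 8.29 to 8.45 in control samples. Of these 7 markers 6 were below 0 as differences and 0 passed, beside 2.00% of all genes. Cnn1 lay below 6 on every array.

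**Figure D3:**
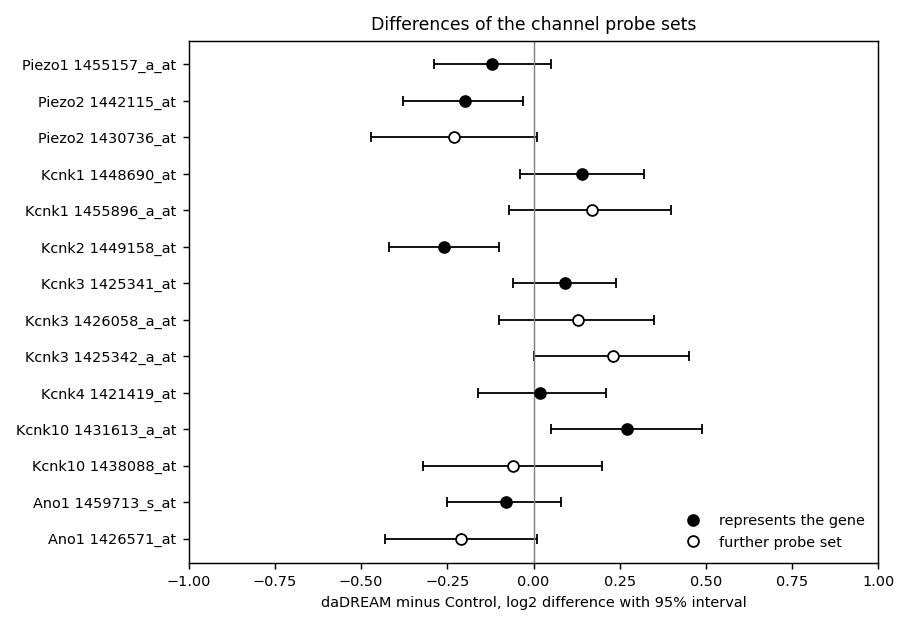
Differences of the 14 channel probe sets (daDREAM minus control, log2) with 95% intervals from limma on n = 4 arrays per group; filled points represent the gene and open points are further probe sets. Intervals that leave 0 are those of Kcnk2, Piezo2 1442115_at, Kcnk10 1431613_a_at and Kcnk3 1425342_a_at, and none of these passed after adjustment.

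Among the other K2P channels 0 of 7 measured genes passed with limma, beside 2.00% of all genes, and 3 had an unadjusted p under 0.05, beside 18.2% of all genes. Kcnk16, the gene of TALK-1, read 6.30, 6.31, 6.27 and 6.35 in daDREAM samples, against 6.58, 6.65, 6.47 and 6.73 in control samples. The daDREAM values lie just above a log2 value of 6, below which signal is taken here as near background. The groups did not overlap, and the difference was -0.30 (SE 0.07, limma adjusted p = 0.069). Without control replicate 3 it fell by 0.35 on the log2 scale and passed (limma adjusted p = 0.0465). With each other array left out in turn it did not pass. Without control replicates 1 and 4, the pair with the most 18S and the least central nervous system signal, Kcnk16 differed by -0.25 (limma adjusted p = 0.238). Kcnk12, the gene of THIK-2, differed by 0.26 (limma adjusted p = 0.19), and by 0.10 (limma adjusted p = 0.654) without control replicates 1 and 4. The list's median difference was -0.07.

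Of the other anoctamins, the family of Ano1, 0 of 6 measured genes passed with limma, beside 2.00% of all genes. Of these 6 genes, 2 had an unadjusted p under 0.05, against 18.2% of all genes. Ano8 read 7.95, 7.88, 7.85 and 7.66 in daDREAM samples, against 6.87, 7.47, 7.56 and 7.13 in control samples. The groups did not overlap, the control values spread more widely than the daDREAM values, and the difference was 0.58 (SE 0.14, limma adjusted p = 0.0619). Without control replicates 1 and 4, which hold its lowest values, Ano8 differed by 0.32 (limma adjusted p = 0.216). That pair has the most 18S signal and also the lowest central nervous system marker means, 8.56 and 8.25. What either has to do with the Ano8 values was not tested. Without control replicate 3 Ano8 differed by 0.68 and passed (limma adjusted p = 0.0312). Ano4 differed by 0.22 (limma adjusted p = 0.244), and the list's median was 0.02.

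Among other genes of mechanosensation, 1 of 20 passed, where 2.00% of all genes did. Tmc7, a relative of the hair cell transduction channel genes, rose 1.5-fold. It read 9.15, 9.52, 9.21 and 9.42 in daDREAM samples, against 8.82, 8.67, 8.71 and 8.75 in control samples, with every daDREAM value above every control value. The difference was 0.59 (SE 0.09, limma adjusted p = 0.00559), while the other Tmc7 probe set (1459099_at) differed by 0.06 (limma adjusted p = 0.723 over probe sets). Without the 3 arrays with Xist signal Tmc7 differed by 0.55 (limma adjusted p = 0.104), without the 3 arrays with the most Gh by 0.59 (adjusted p = 0.15 in limma) and without control replicates 1 and 3 by 0.61 (adjusted p = 0.0592 in limma). Tmem120a, whose product TACAN was proposed to act in mechanical pain, differed by 0.31 (limma adjusted p = 0.181). The list's median was 0.06.

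Of K2P partners and regulators, 1 of 20 passed, again beside 2.00% of all genes. Senp1, a protease that removes SUMO and is reported to act on TWIK-1, rose 1.97-fold at its brightest probe set (1451319_at). It read 8.53, 8.44, 8.30 and 8.47 in daDREAM samples, against 7.12, 7.47, 7.53 and 7.71 in control samples, with no overlap and a difference of 0.98 (SE 0.11, limma adjusted p = 7.76e-04). Its other probe sets went the other way without passing, at -0.22 (1424330_at, limma adjusted p = 0.269 over probe sets) and -0.34 (1428925_at, limma adjusted p = 0.17 over probe sets). In control samples 1451319_at averaged 7.46, below 7.84 for 1424330_at. It was thus brightest over all 8 arrays only through its daDREAM values. That Senp1 counts as passed rests on this choice. With the mean of its 3 probe sets Senp1 differed by 0.14 (limma adjusted p = 0.192). The kinase gene Mark3 differed by 0.24 (limma adjusted p = 0.131), and the list's median was 0.04. Calcineurin subunits, which switch TRESK on, gave 0.03 for Ppp3ca, 0.12 for Ppp3cb, 0.07 for Ppp3cc and 0.05 for Ppp3r1, and none passed.

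Among genes of chloride handling and Ano1 partners, 0 of 19 passed at their brightest probe sets, beside 2.00% of all genes. Of these 19 genes, 5 had an unadjusted p under 0.05, where 18.2% of all genes did. Ttyh2, of the tweety family, read 8.36, 8.58, 8.53 and 8.66 in daDREAM samples, against 8.86, 8.71, 8.97 and 9.03 in control samples, without overlap and with a difference of -0.36 (SE 0.09, limma adjusted p = 0.0793). Without control replicate 2 it fell by 0.42 on the log2 scale and passed (limma adjusted p = 0.0491), and with the mean of its probe sets it fell by 0.45 and passed (limma adjusted p = 0.0183). Its dimmer probe set (1421179_at) fell by 0.53 on the log2 scale (limma adjusted p = 0.0113 over probe sets). Lrrc8c, a subunit of the volume-regulated anion channel, differed by -0.22 (limma adjusted p = 0.156) at its brighter probe set and by 0.13 at the other. Slc12a2, the transporter that loads sensory neurons with chloride, differed by -0.12 (limma adjusted p = 0.454). Slc12a5, of the same gene family, had the list's highest difference, 0.58 (95% interval -0.11 to 1.27, limma adjusted p = 0.354), and its groups overlapped. The list's median was -0.05.

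**Figure D4:**
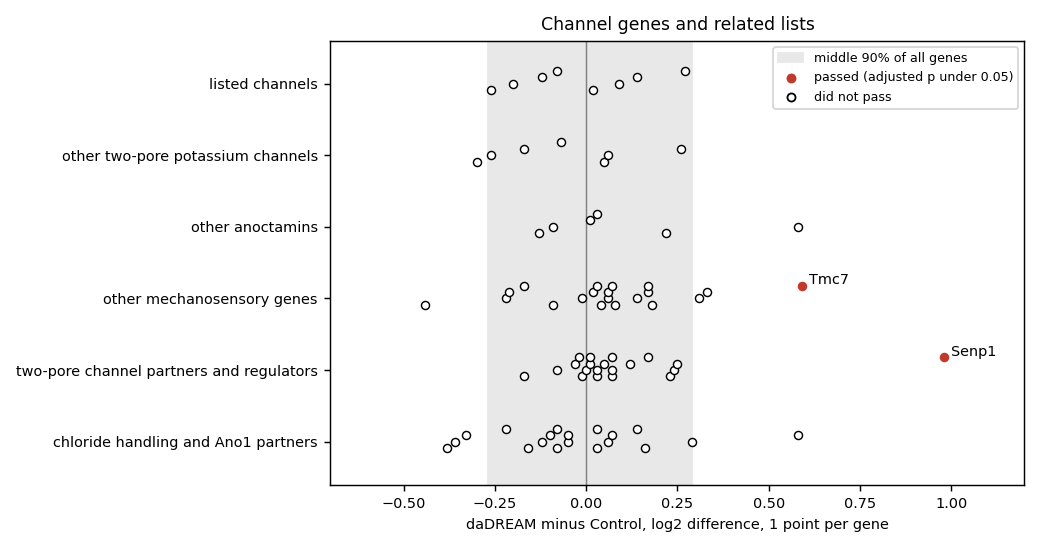
Differences of the 8 measured channel genes and of the genes in 5 related lists (daDREAM minus control, log2, 1 point per gene at its brightest probe set; vertical offsets only separate points). The grey band runs from -0.27 to 0.29 and holds the middle 90% of all 18193 genes, and all 8 channels lie within it. Tmc7 and Senp1 are the 2 genes that passed, Senp1 at a probe set that is its brightest only through the daDREAM values.

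**Figure D5:**
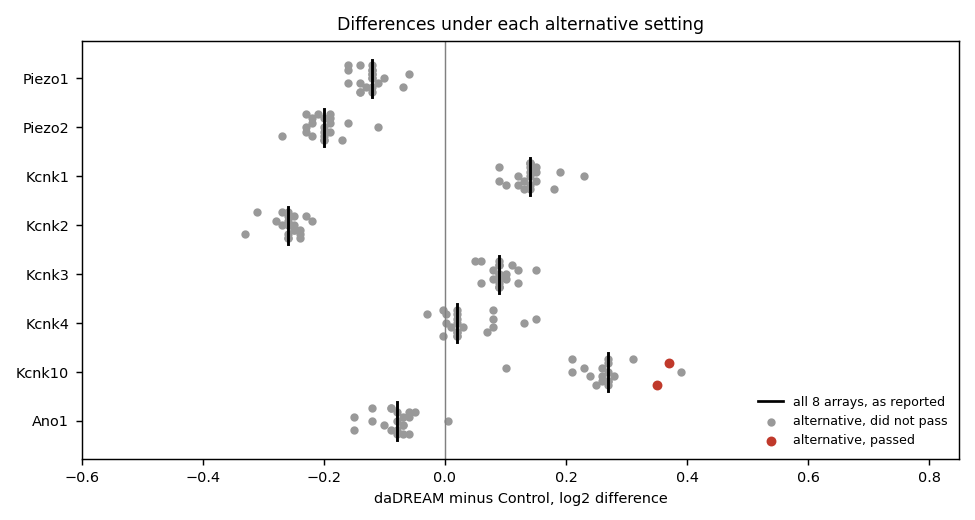
Differences of the 8 channel genes (daDREAM minus control, log2) under 21 alternative settings (grey points; red where the gene passed) beside the reported value (black line). Kcnk10 passed under 2 settings, at 0.35 and 0.37, while the other 7 genes passed under none at the gene level, and Kcnk4 and Ano1 reach the other side of 0.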

How the data were processed

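Each of the 8 samples was measured on 1 Affymetrix array (GeneChip Mouse Genome 430 2.0). The submitters' processing notes name RMA and the affy package, with no version given in the sources used here, and the values the authors deposited are on a log2 scale, with 1 value per probe set. RMA brings the arrays close to 1 distribution, so a difference is measured against the other genes and not as an absolute amount. Array medians ran from 7.09 to 7.13, and 0 pairs of arrays held identical values. The number of arrays limits the precision.

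Of 45101 probe sets, 64 Affymetrix controls were left out. Platform annotation gave 34945 a single symbol, and a gene was represented by the one with the highest mean over all 8 arrays, which left 18193 genes. Genes and probe sets were each fitted with limma 3.58.1 in R 4.3.3 (group as the only term, two-sided, Benjamini-Hochberg over all genes or all probe sets), and the fit was tested on simulated data. Intervals are 95% intervals of that fit, not adjusted. Members and lists were chosen with earlier results of these data known. Named are all members with every probe set, Kcnip3, and in each list the genes that passed and the 2 with the smallest p. Calcineurin genes, Slc12a2, Slc12a5 and single marker genes were added after their values were seen. Counts of a list cover its measured genes, and the others were not analysed here. Promoter windows come from RefSeq (GRCm38.p6). Markers of satellite glia and Schwann cells averaged 12.32 to 12.47 in daDREAM samples and 12.26 to 12.40 in control samples. Alternatives covered normalization, filters, probe set choice, the test, its threshold, the replicate number as a block and leaving out arrays. Plots used matplotlib 3.10.9 (Python 3.11.15).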

Additional observations from a re-analysis of the deposited data

Results flagged for a closer look

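Of 28 groups of 4 values of the channel probe sets, 4 held an array whose gap to the nearest value divided by the group's range exceeded Dixon's 95% critical value, and chance gives about 1 in 20. For Piezo1, daDREAM replicate 3 read 7.27, while the other 3 read 7.49. For Kcnk2, daDREAM replicate 1 read 8.87 against 8.65 to 8.66 on the others, and it is the value nearest to the controls. For Kcnk10 (1431613_a_at), daDREAM replicate 1 read 7.23 against 7.39 to 7.41. Kcnk4 read 6.37 on control replicate 3, against 6.15 to 6.17 on the other controls. Beyond the channels, the mean of the smooth muscle and pericyte markers was 8.29 on control replicate 1, against 8.44 to 8.45 on the other controls. Differences of this size are small on the log2 scale, and their source was not tested.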

How the results depend on the processing

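The number of channel genes that passed limma became 1 (Kcnk10) with array weights. It ranged from 0 to 1 when each array was left out, the 1 being Kcnk10 without control replicate 4. Over probe sets it became 1 after renewed quantile normalization (Kcnk2, -0.33, limma adjusted p = 0.0462), 1 with array weights (Kcnk10), 1 at an adjusted p under 0.1 (Kcnk2) and 0 to 1 with each array left out. As a gene, Kcnk2 ranged from -0.33 to -0.22 over 21 alternatives, with limma adjusted p from 0.0501 to 0.424 across them.

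Other K2P channels counted 1 (Kcnk16) with the mean of probe sets and at an adjusted p under 0.1, and 0 to 1 with each array left out. Anoctamins counted 1 (Ano8) with the replicate block and at an adjusted p under 0.1, and 0 to 1 with each array left out. Mechanosensory genes counted 0 with the unequal-variance test and without the arrays with Xist signal, the most Gh or the most Acta1. K2P partners counted 0 with the unequal-variance test. With the mean of probe sets they still counted 1, but Senp1 did not pass there (limma adjusted p = 0.192), so the 1 was another gene. Chloride genes counted 2 with the replicate block, 1 with the mean of probe sets, at an adjusted p under 0.1 and without the arrays with the most Acta1, and 0 to 1 with each array left out.

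Signs turned for small differences. Kcnk4 read -0.03 without the arrays with the most 18S, and from -0.0033 to 0.08 with each array left out. Ano1 (1459713_s_at) read 0.005 without the arrays with Xist signal. Kcnk3 (1426058_a_at) read -0.02 without the arrays with the most Acta1. Kcnk10 (1438088_at) read 0.06 without the arrays with Xist signal, 0.08 without those with the most Gh and from -0.13 to 0.07 with each array left out. Kcnip3 read -0.04 after renewed quantile normalization, -0.02 with array weights, -0.09 and 0 without the arrays with the most 18S and the most Acta1, and from -0.01 to 0.09 with each array left out. The cause of these changes was not tested.

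Samples of the same number were not taken as pairs: their deviations correlated at 0.21, 0.01, 0.33 and 0.36, against -0.28 to 0.31 between numbers, and 2 of the 4 daDREAM samples matched their own number best. With the number as a replicate block 672 genes passed over the whole array, against 364, and 0 channel genes, and Ano8 (limma adjusted p = 0.0324) and Ttyh2 (limma adjusted p = 0.0452) passed. Other settings that moved this number by more than 1.5 times were an adjusted p under 0.1 with 703, the unequal-variance test with 49, and leaving out daDREAM replicate 2 or 3 with 229 or 236, the arrays with Xist signal with 213, the most 18S with 227, the most Acta1 with 171 and the most Gh with 98.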
